A study of Hypsibius exemplaris with 24 samples.

Results

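The subject is a set of 10 transcripts of the freshwater tardigrade *Hypsibius exemplaris* that were low at both 12 and 24 h after bleomycin and, at each time up to 9 h, less than 0.7 below their unexposed level on a log2 scale. The rule sets no upper bound at those earlier times, so members may also have been above control then. They were picked from the measured values. A transcript had to reach 5 TPM in at least 3 of 24 libraries, which 12916 of 20853 transcripts did. Its mean difference from control then had to be -1.5 or lower at both 12 and 24 h, and above -0.7 at each of 0, 1, 3, 6 and 9 h. These differences are on the scale log2(scaled TPM + 1). TPM is a transcript's share of a library after correction for length, and scaled TPM is that value divided by a scale factor per library. The rule used every group mean, so the differences from control are given below as descriptions, with no test.

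RNA was sequenced from pools of 50 whole animals, 3 libraries in each of 8 groups. In 7 groups the animals had spent 24 h in 100 µM bleomycin dissolved in mineral water. Those of 0 h were frozen at once, and those of 1, 3, 6, 9, 12 and 24 h were first washed, put on agar plates with *Chlorella* algae as food and kept at 18 °C. The control pools had spent the same 24 h in the mineral water alone and were frozen together with the 0 h pools. No control was washed, plated or fed, so from 1 h on each difference from control also holds the handling, the food and the time passed. No strain, age or sex is given in the labels, and each library is a pool, so variation between animals cannot be seen.

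Bleomycin is a drug that cuts DNA strands, and tardigrades are known for surviving doses of DNA damage that kill most animals. The level of an mRNA falls when its gene is transcribed less, when the mRNA is degraded faster, or when the cells that hold it become fewer. A time course after damage shows at which point a level begins to move. In RNA from whole animals, fewer cells of a type and less RNA per cell cannot be told apart. The deposited table gives locus numbers and does not pair them with gene names or products, so no role can be stated for any of the 10 transcripts, and the whole-body label could not be checked against marker genes.

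Up to 9 h the bleomycin libraries had scale factors of 0.929 to 1.11. The 12 h libraries had 0.664 to 0.868 and the 24 h libraries 0.877 to 1.07, against 1.14 to 1.18 in the controls. Replicate 3 of 12 h, at 0.664, therefore stands apart in scale. Replicates 1 and 2 of 12 h, at 0.868 and 0.855, were close to replicates 1 and 3 of 24 h, at 0.883 and 0.877. Deposited TPM are given beside scaled values where the scaling moves a result. The number of transcripts with a value above 0 ranged from 14984 to 17173 per library. Control replicate 2 stood apart from the other controls. Measured from the control mean, 3.58% of the transcripts past the filter were at or under the late threshold of the rule there. In control replicates 1 and 3 these were 0.310% and 0.263%. Control replicate 2 had 15829 transcripts above 0, against 16408 and 16630, and it enters every difference from control. Sequencing depth cannot be read from TPM and is unknown for every value.

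The rule took 10 transcripts with scaled TPM and 45 with TPM left unscaled, 5 of the 10 among them. The earlier bound leaves room for smaller differences before 12 h. BV898_09373.t01, for example, had all libraries of 0, 3 and 9 h below all controls. With scaled TPM, 949 of the transcripts past the filter were at -1.5 or lower at both 12 and 24 h, and 939 of these were at -0.7 or lower at 1 or more of the earlier times. At all 5 earlier times, 200 of the 949 were at or under that bound, 461 were so at 4 times, 143 at 3, 96 at 2 and 39 at 1. The time at which the 939 most often were under the bound was 3 h, with 95.2% of them, and the time at which they least often were was 0 h, with 29.2%. The 10 members thus lie at one edge of a large group of transcripts that were low late. A mirrored rule, with a rise of at least 1.5 at 12 and 24 h and differences under 0.7 before, held for 26 of 1117 transcripts that were that much higher at both late times.

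**Figure D1:**
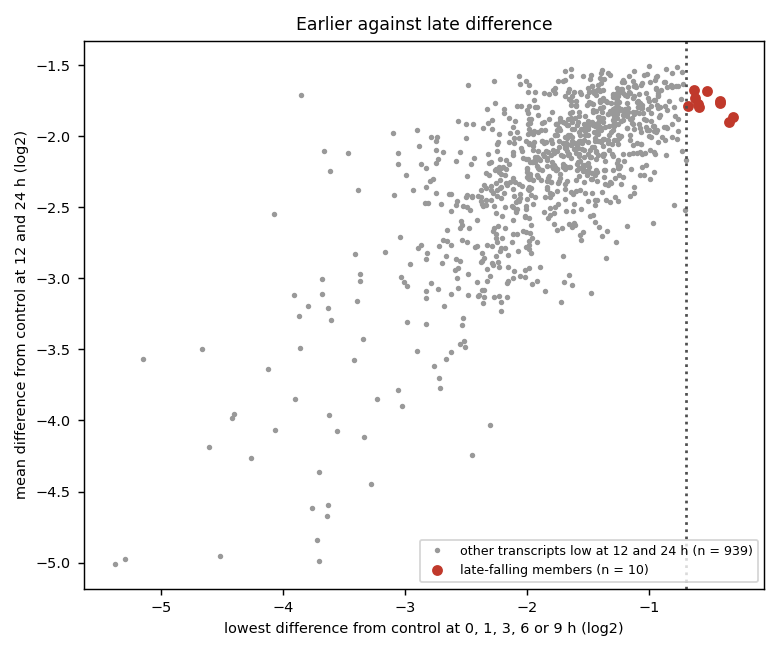
Each point is 1 of the 949 transcripts at -1.5 or lower at both 12 and 24 h. The horizontal axis gives its lowest difference from control at 0 to 9 h and the vertical axis the mean of its differences at 12 and 24 h, both as log2, and the dotted line marks -0.7. The 10 members sit at the right edge of one continuous cloud, and their late differences are among the smaller ones in it.

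The bounds of the rule passed through that cloud. At 12 h the member closest to the threshold was BV898_15035.t01 at -1.52, and BV898_01917.t01 missed it at -1.49. At 24 h BV898_08432.t01 was just inside at -1.52 and BV898_04655.t01 just outside at -1.49. On the earlier bound, BV898_09373.t01 was inside at 3 h with -0.68 and BV898_03581.t02 outside with -0.77. At 9 h BV898_15035.t01 was inside with -0.63, and BV898_16731.t01 lay outside by less than 0.01. The earlier bound at 3 h alone kept out 19 transcripts and that at 9 h alone 9, while 0 h, 1 h and 6 h alone kept out 4, 3 and 4. The members at 0 h ran down to BV898_05911.t01 at -0.58, where BV898_20092.t01 lay outside at -0.81. At 1 h BV898_07283.t01 was inside at -0.59 and BV898_11070.t01 outside at -0.72, and at 6 h BV898_15158.t01 was inside at -0.36 and BV898_02756.t01 outside at -0.73. The filter on low values kept out 0 transcripts that met the other bounds.

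By their median the members were below control at every earlier time. Their median difference was -0.34 (0 h), -0.27 (1 h), -0.45 (3 h), -0.26 (6 h) and -0.45 (9 h), and then -1.78 (12 h) and -1.77 (24 h). Over all 12916 transcripts the median lay between -0.05 and 0.09 at each time. For the 939 others that were low late it was -0.45 (0 h), -1.01 (1 h), -1.57 (3 h), -1.07 (6 h), -1.25 (9 h), -2.14 (12 h) and -2.04 (24 h). For 5 of the 10 members all 5 earlier differences were below 0, which held for 23.4% of all transcripts past the filter. The rule used these differences, and all of them share the same control mean, so the count is a description. At 0 h the scaled means of these 5 were 59.7% to 99.1% of the control mean and at 1 h 64.7% to 88.4%. At 3, 6 and 9 h they were 65.0% to 75.6%, 78.5% to 98.1% and 64.3% to 74.3%.

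**Figure D2:**
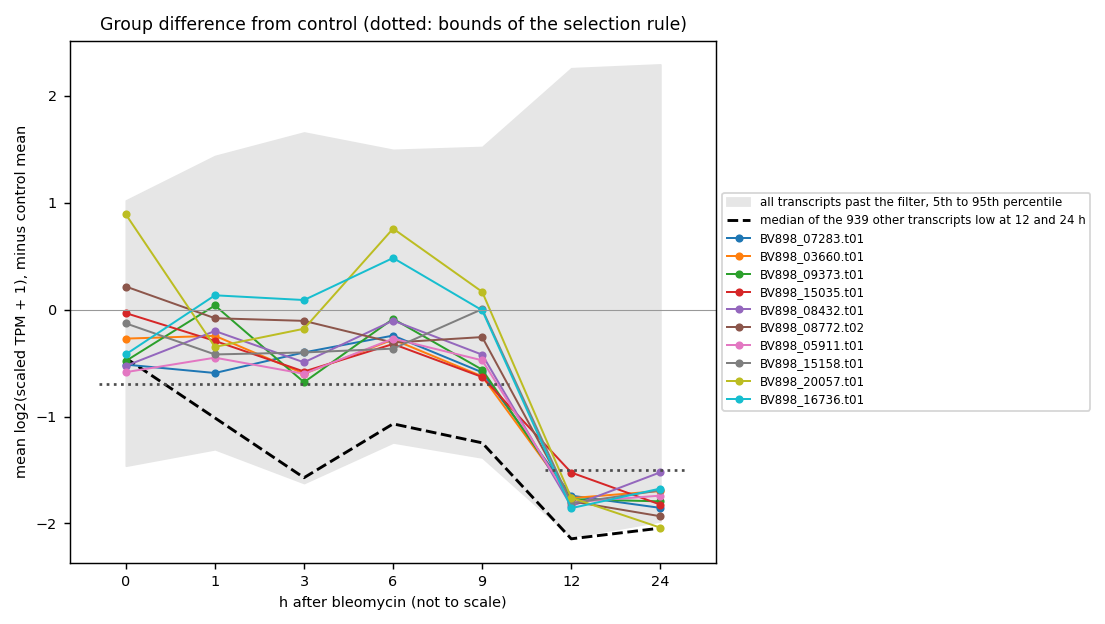
Mean log2(scaled TPM + 1) of each group minus the control mean, against hours after bleomycin, with 1 line per member. The dashed line is the median of the 939 other transcripts that were low at 12 and 24 h, the grey band holds the 5th to 95th percentile of all transcripts past the filter, and the dotted lines are the bounds of the rule. The members lie between -0.68 and 0.89 up to 9 h and between -2.04 and -1.52 at 12 and 24 h.

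The members fall into 5 abundant transcripts, with control means of 62.4 scaled TPM and more, and 5 called scarce here, with control means of 22.4 and less. The split was at 50 scaled TPM, which 26.2% of all transcripts past the filter reached, so scarce is meant relative to the abundant members. The median control mean was 42.4 scaled TPM over the members and 19.9 over all transcripts past the filter. Together the 10 held 0.0147% ± 0.00340 of all deposited TPM at 12 h and 0.0177% ± 0.00754 at 24 h, against 0.0729% ± 0.0125 in the control (SD, n = 3 each). At the earlier times they held 0.0536% ± 0.00800 (0 h), 0.0549% ± 0.00784 (1 h), 0.0469% ± 0.0182 (3 h), 0.0590% ± 0.0162 (6 h) and 0.0445% ± 0.00682 (9 h) (SD, n = 3 each). The summed share was lower at 12 and 24 h than in any library of the other groups.

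BV898_07283.t01 was the most abundant member. Replicates 1 to 3 were at 59.8, 58.3 and 61.2 scaled TPM in the 12 h libraries and at 39.0, 80.6 and 53.1 in the 24 h libraries, against 198, 265 and 157 in the control. All 6 late libraries lay below all controls, and the 3 libraries of 12 h were within a narrow band. Before that it was at 154, 143 and 127 (0 h), 128, 137 and 136 (1 h), 144, 202 and 123 (3 h), 128, 192 and 202 (6 h) and 162, 96.0 and 156 (9 h). Every library of 0 h and of 1 h was already below the lowest control, while libraries of 3, 6 and 9 h overlapped the controls. The mean at 12 h was 28.9% of the control mean and that at 24 h 27.8%. In deposited TPM these shares were 19.8% and 23.3%.

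BV898_03660.t01 was at 39.6, 53.0 and 32.5 scaled TPM in the 12 h libraries and at 26.1, 72.0 and 41.7 in the 24 h libraries, against 150.3, 166 and 113 in the control. The late libraries lay below the controls, with 24 h replicate 2 the closest to them. Its earlier values were 116, 129 and 107 (0 h), 111, 109.9 and 138 (1 h), 68.0, 138 and 85.3 (3 h), 81.9, 147 and 131 (6 h) and 105, 77.7 and 93.6 (9 h). At 9 h all 3 libraries were below the lowest control, and 3 h replicate 1 was lower than 24 h replicate 2. The difference of -0.62 at 9 h was 35.4% of the difference of -1.76 at 12 h.

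BV898_09373.t01 was at 27.5, 28.6 and 21.6 scaled TPM in the 12 h libraries and at 17.4, 36.1 and 25.9 in those of 24 h, against 83.7, 104.8 and 84.3 in the control. Its controls were the closest together of any member, 0.32 apart on the log2 scale. None of the late libraries reached 44.4, the lowest value of any other library. It was at 80.1, 75.4 and 44.4 (0 h), 88.2, 92.5 and 98.4 (1 h), 47.7, 76.7 and 48.2 (3 h), 69.5, 100.3 and 88.4 (6 h) and 63.6, 63.5 and 56.1 (9 h). Its path was uneven, since all libraries of 0, 3 and 9 h were below all controls while those of 1 and 6 h overlapped them. The differences were -0.48 (0 h), 0.04 (1 h), -0.68 (3 h), -0.09 (6 h) and -0.56 (9 h).

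BV898_15035.t01 was the abundant member with the smallest drop at 12 h. It was at 20.5, 42.5 and 18.2 scaled TPM in the 12 h libraries and at 21.2, 14.6 and 26.8 in the 24 h libraries, against 81.8, 78.0 and 64.6 in the control. Replicate 2 of 12 h was about 2-fold above the other libraries of its group and above several libraries of 3, 6 and 9 h. Those were at 36.4, 72.6 and 45.8 (3 h), 40.0, 92.5 and 56.4 (6 h) and 72.0, 39.4 and 38.3 (9 h), after 94.4, 69.3 and 58.9 (0 h) and 59.6, 46.1 and 80.9 (1 h). Its level went down with less of a step than that of the other members, with differences of -0.03 (0 h), -0.63 (9 h), -1.52 (12 h) and -1.82 (24 h). Without 12 h replicate 3 the difference at 12 h was -1.30, which the rule would not have taken.

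BV898_08432.t01 was at 17.1, 15.7 and 16.1 scaled TPM in the 12 h libraries and at 14.9, 28.6 and 20.1 in the 24 h libraries, against 76.5, 67.2 and 43.6 in the control. Its 12 h libraries were the most alike of any group, with a mean of 16.3 ± 0.700 (SD, n = 3). Earlier libraries were spread far more, at 51.6, 46.2 and 30.8 (0 h), 43.6, 42.1 and 80.0 (1 h), 29.0, 69.0 and 39.3 (3 h), 30.9, 81.8 and 71.1 (6 h) and 55.3, 31.9 and 51.9 (9 h). The highest late library, 24 h replicate 2, was just under 29.0, the lowest value before 12 h.

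Among the 5 abundant members the 12 h mean was 26.1% to 36.2% of the control mean and the 24 h mean 27.8% to 34.0%, in scaled TPM. In deposited TPM the ranges were 17.9% to 25.5% at 12 h and 22.2% to 28.3% at 24 h. The scaling thus makes the falls at both times smaller, and more so at 12 h, where the libraries have the lowest factors. For BV898_07283.t01, BV898_08432.t01 and BV898_09373.t01 all 6 libraries of 12 and 24 h lay below all 18 others, a pattern held by 1.25% of the transcripts past the filter. The rule chose on these group means, so this separation is a description.

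**Figure D3:**
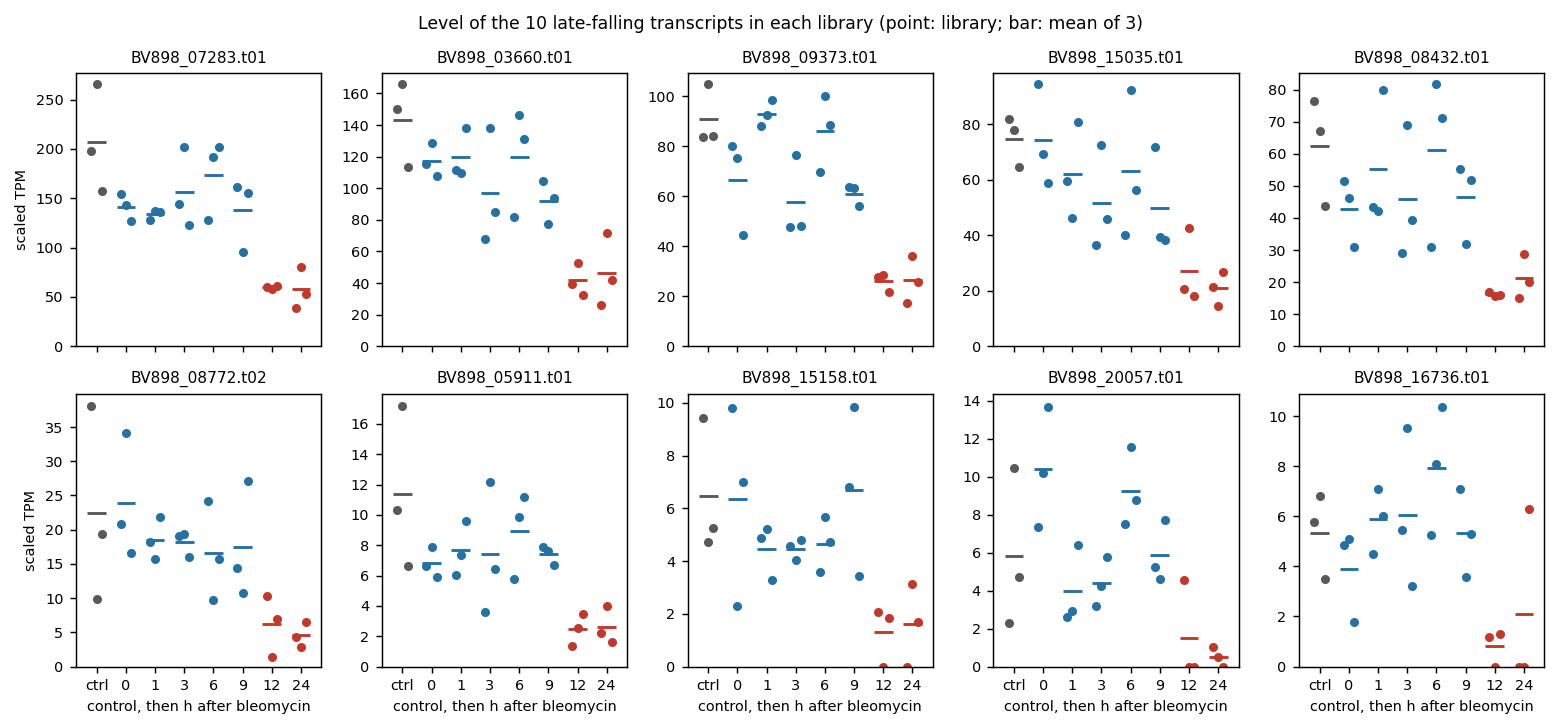
Scaled TPM of each member in each library, with 1 panel per transcript in order of control mean. Groups run from control through 0 to 24 h along the horizontal axis, points are libraries and bars are means of 3. Red points are the 12 and 24 h libraries. In the panels of BV898_07283.t01, BV898_08432.t01 and BV898_09373.t01 they lie below all other points, and in the other panels they overlap some of the earlier libraries.

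BV898_08772.t02 was the only member whose locus has another transcript in the table. It was at 10.3, 1.32 and 6.89 scaled TPM in the 12 h libraries and at 4.28, 2.93 and 6.47 in the 24 h libraries, against 38.1, 9.82 and 19.4 in the control. Its controls had the widest range of any member, 1.85 on the log2 scale, and 12 h replicate 1 was above control replicate 2. From 0 to 9 h its libraries lay between 9.77 and 34.2. The other transcript of the locus, BV898_08772.t01, was the major one, at 50.2 ± 9.48 at 12 h and 44.0 ± 13.4 at 24 h, against 113 ± 32.4 in the control (SD, n = 3 each). It was lower by 1.14 at 12 h and by 1.34 at 24 h on the log2 scale and passed neither threshold. Both transcripts were thus low late, by different amounts. Summed over the locus, the differences were -1.25 and -1.47, so the locus as a whole is no member, and how reads were split between its transcripts bears on t02.

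The 4 other scarce members had control means between 5.35 and 11.4 scaled TPM. BV898_05911.t01 was at 1.32, 2.56 and 3.49 scaled TPM in the 12 h libraries and at 2.21, 4.02 and 1.63 in the 24 h libraries, against 10.3, 17.2 and 6.66 in the control. It was above 0 in every library, its late libraries were all under the controls, and between 0 and 9 h it lay between 3.63 and 12.2. BV898_15158.t01 was at 2.06, 0 and 1.82 in the 12 h libraries and at 0, 3.14 and 1.68 in the 24 h libraries, against 9.42, 4.74 and 5.25 in the control. Its late libraries were also all under the controls, but 0 h replicate 2, at 2.31, was lower than 24 h replicate 2.

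BV898_20057.t01 and BV898_16736.t01 had the largest means above control before the fall. BV898_20057.t01 was at 4.54, 0 and 0 scaled TPM in the 12 h libraries and at 1.04, 0.514 and 0 in the 24 h libraries, against 2.29, 10.4 and 4.71 in the control. It stood at 7.34, 10.2 and 13.7 in the 0 h libraries and at 7.49, 11.6 and 8.77 in those of 6 h, with lower values between, such as 2.59, 2.92 and 6.40 in the 1 h libraries. Without 12 h replicate 3 its difference at 12 h was -1.35, short of the threshold. BV898_16736.t01 was at 1.16, 0 and 1.29 in the 12 h libraries and at 0, 0 and 6.27 in the 24 h libraries, against 5.76, 6.81 and 3.48 in the control. Replicate 3 of 24 h was above control replicates 1 and 3, so at 24 h the groups overlapped, and its highest earlier mean was at 6 h with 7.91 ± 2.57 (SD, n = 3). A value of exactly 0 in a table of estimated TPM need not be absence, since the depth behind it is unknown. Of the 10 members, 3 were listed at 0 in at least 1 late library, as were 6.44% of all transcripts past the filter. The rule chose transcripts with low late means, so this count is a description.

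All 3 libraries of 12 h lay below all 3 controls for 8 of the 10 members, and all 3 of 24 h for 9 of 10. Over all transcripts past the filter this held for 30.6% at 12 h and 28.0% at 24 h. The rule used these contrasts, so the counts are not read further.

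Between 12 and 24 h the members' means lay close together. The rule bounded both means against control, and members sit near that bound at both times, so their choice itself narrows the difference between them. Differences between times are therefore given as descriptions. The median difference of 24 h from 12 h was 0.02 over the members, with 5 of them below 0 and 5 above, and 0.03 over all transcripts fitted. Of all transcripts fitted, 47.3% were below 0. With limma over 16490 transcripts 0 members were called, with 9.35% of all transcripts called lower and 10.6% higher and 33.4% at an unadjusted p under 0.05, which 0 members reached. Nothing is read from these counts.

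The 95% intervals of these differences, from the same fit, take no account of how the members were chosen. For BV898_09373.t01 the difference of 24 h from 12 h was -0.02 with a 95% interval of -0.54 to 0.50, and for BV898_07283.t01 it was -0.11 with an interval of -0.65 to 0.42. Both are abundant members, whose libraries were close together at 12 h. For BV898_16736.t01 the difference was 0.18 with an interval of -1.03 to 1.39, the widest shown here, and it was listed at 0 in 3 of its late libraries. The largest differences were 0.32 for BV898_08432.t01 (interval -0.45 to 1.08) and -0.30 for BV898_15035.t01 (interval -1.04 to 0.44).

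The wash, the plates and the food came between 0 and 1 h. The rule held the means of both times above -0.7 of control, which limits falls at either. With limma 0 members were called at 1 h against 0 h, and 2 reached an unadjusted p under 0.05, with 10.2% of all transcripts called lower, 12.6% higher and 34.9% under that unadjusted p. Nothing is read from these counts either. BV898_20057.t01 was at 2.59, 2.92 and 6.40 scaled TPM at 1 h, against 7.34, 10.2 and 13.7 at 0 h, a difference of -1.24 (SE 0.54), lower in 3 of 3 libraries. BV898_09373.t01 differed the other way, by 0.52 (SE 0.25), higher in 3 of 3 libraries.

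Between 1 and 9 h, when all animals had been plated and fed, the rule again bounded both means. It kept out transcripts that were lower by 9 h, 9 of them by the bound at 9 h alone. The median difference of 9 h from 1 h was -0.16 over the members, 7 of them below 0, and -0.02 over all transcripts fitted. Of all transcripts fitted, 51.5% were below 0. With limma 0 members were called, and 1 reached an unadjusted p under 0.05, with 0.940% of all transcripts called lower, 2.04% higher and 15.3% under that unadjusted p. That member was BV898_09373.t01, at 63.6, 63.5 and 56.1 scaled TPM at 9 h, against 88.2, 92.5 and 98.4 at 1 h. The difference was -0.60 (SE 0.25), lower in 3 of 3 libraries.

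**Figure D4:**
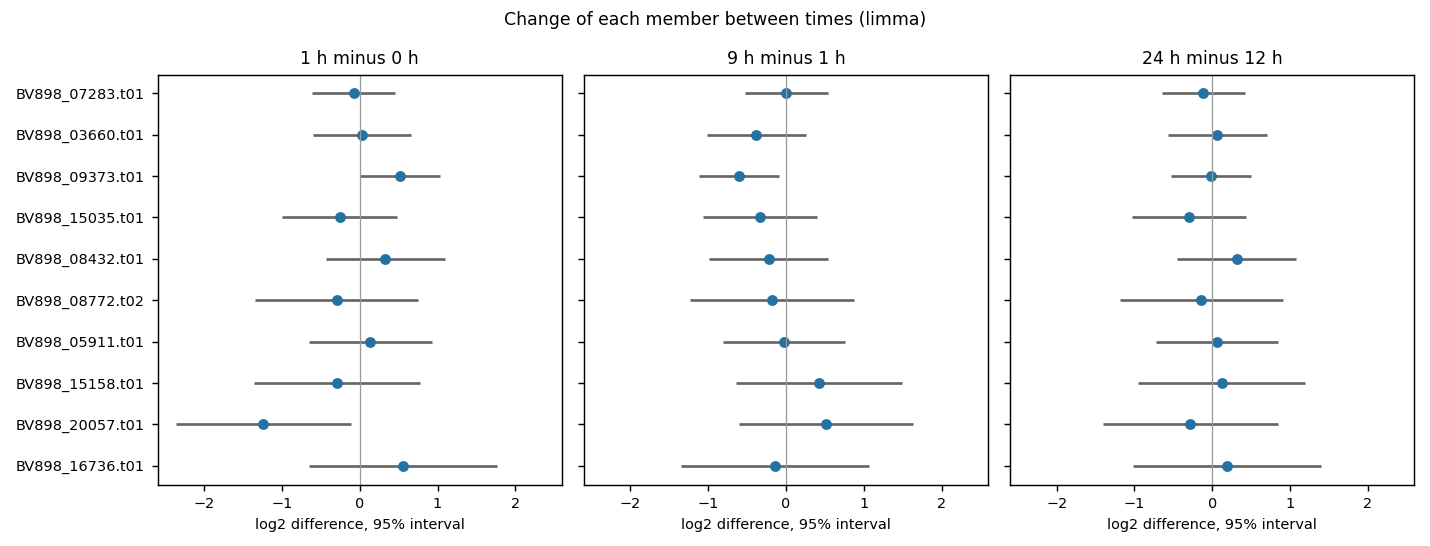
Differences in mean log2(scaled TPM + 1) for each member between 1 and 0 h, 9 and 1 h, and 24 and 12 h. Points are differences from the linear model over all 24 libraries and lines are 95% intervals. All 10 intervals for 24 h against 12 h cross 0, and the 4 widest belong to scarce members, but the choice of members bounded every mean shown.

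Replicates of a group differed in the same direction for many members. The rule used the means that these libraries carry, so this pattern is in part selected and is given as a description. Without 3 h replicate 2 the rule took 5 transcripts, and without 3 h replicate 1 or 9 h replicate 2 it took 16. Replicate 2 of 3 h was the highest of its group for 8 of the 10 members and for all 5 abundant ones, against 33.3% of all transcripts past the filter. Replicate 1 of 6 h was the lowest for 9 members (35.3% of all transcripts) and replicate 3 of 0 h the lowest for 8 (37.4%). Replicate 1 of 9 h was the highest for 7 members, the 5 abundant ones among them (31.1%), and replicate 3 of 1 h was the highest for 7 (37.6%). At 24 h replicate 2 was the highest for 6 members, where 46.3% of all transcripts had their highest value there. These libraries were singled out after their values were seen. Since members moved together from library to library, they are not independent readings of a group.

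The bounds of the rule were also applied with replicate 1, 2 or 3 of every group left out. The transcripts so chosen were read in the replicate left out, as the bleomycin library minus the control library of that number. The filter and the scale factors still came from all 24 libraries, so the choice was not wholly free of the libraries left out. The labels do not say whether libraries of the same number belong together. Each of the 3 readings uses 1 control library. All transcripts of a reading share it, so they are not independent and their counts are descriptions. In replicate 2 that library is the control that stood apart from the others. Without replicate 1, 12 transcripts were chosen, without replicate 2 also 12, and without replicate 3 there were 9. Of these, 3, 3 and 4 are among the 10 members. No transcript was chosen all 3 times, 3 were chosen 2 times and 27 once.

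In the replicates left out the medians at 12 and 24 h were low. In replicates 1 and 2 most values were also under the earlier bound at some of the earlier times. In replicate 1 the median difference of the 12 was -1.57 at 12 h and -2.05 at 24 h, in replicate 2 that of the 12 was -2.06 and -1.58, and in replicate 3 that of the 9 was -1.10 and -1.22. The medians over all transcripts past the filter were between -0.02 and 0.11 in the same libraries. At -1.5 or lower at both times were 7 of 12, 6 of 12 and 1 of 9, where 11.2%, 7.94% and 4.74% of all transcripts were. At 3 h, however, the median in replicate 1 was -1.21, with 2 of 12 above the earlier bound of -0.7 (70.3% of all transcripts). At 9 h the median in replicate 2 was -1.17, with 3 of 12 above that bound (74.6% of all transcripts). In replicate 3 the medians from 0 to 9 h lay between -0.27 and 0.41. The whole rule was met in the replicate left out by 0 of 12, 0 of 12 and 0 of 9 transcripts, where 0.108%, 0.0232% and 0.170% of all transcripts met it.

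**Figure D5:**
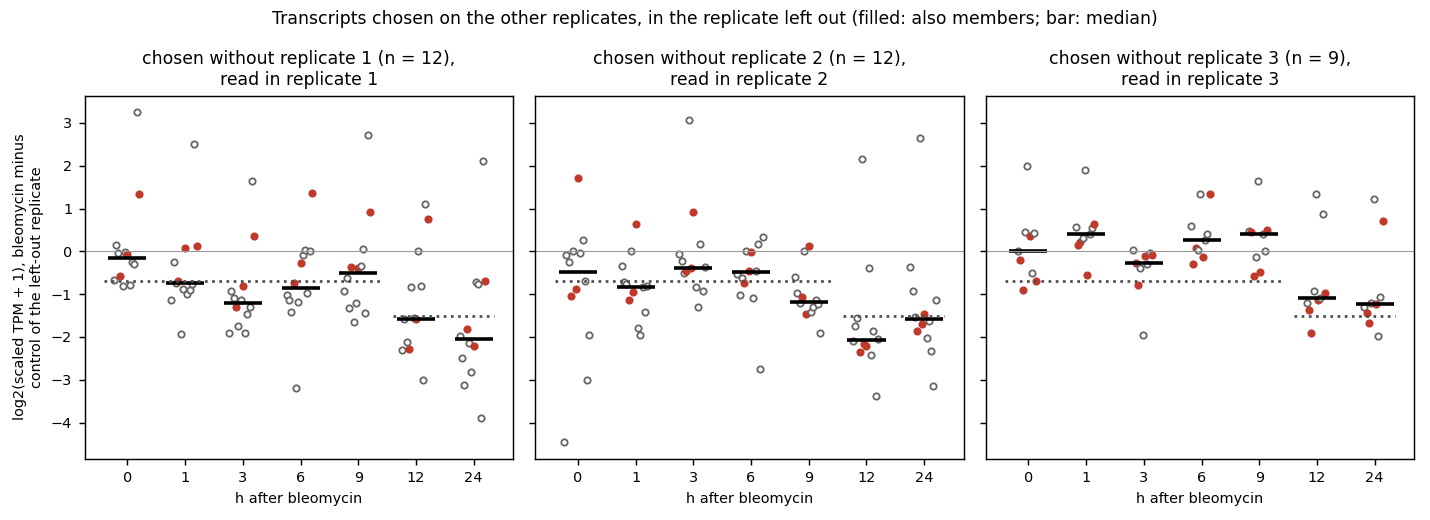
Transcripts chosen by the bounds of the rule on 2 replicates per group, read in the replicate left out. The filter and the scale factors came from all libraries. The vertical axis is log2(scaled TPM + 1) of the bleomycin library minus that of the control library left out, the horizontal axis is hours after bleomycin, bars are medians, filled points are also among the 10 members and dotted lines are the bounds of the rule. Medians at 12 and 24 h lie between -2.06 and -1.10. Most points lie under the earlier bound at 1, 3 and 6 h in replicate 1 and at 1 and 9 h in replicate 2.

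The members shared no place in the locus numbering. They belong to 10 loci, and the smallest step between the numbers of any pair of them was 123, so no consecutive locus numbers were among them. The 9 members other than BV898_08772.t02 are the only transcript of their locus in the table, as for most loci, since 4.12% of all 19939 loci have more than 1. No sequence of the transcripts was used here.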

How the data were processed

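The authors deposited TPM per transcript in 1 table, not normalized across libraries, and each of its 24 columns sums to the same total within rounding. The submitters' processing notes name RSEM 1.2.26, DESeq2 1.22.2, FastQC 0.11.3 and Bowtie2 2.2.9, with no role stated. The genome build is not given in the sources used here, nor is the annotation. Depth is unknown, so no counting error can be given. Columns were matched to samples by the submitters' descriptions, and groups come from the titles. The labels give no batch, so no within-batch values could be made. No pair of libraries was identical (0 pairs).

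TPM were divided by each library's median ratio to the geometric mean over 12190 transcripts above 0 in all 24 libraries. Values are log2(scaled TPM + 1), which understates changes of scarce transcripts. The 16490 transcripts with at least 1 TPM in 3 libraries, all 10 members among them, were fitted with limma 3.58.1 (R 4.3.3), a mean per group, robust eBayes with a trend, two-sided tests and p-values adjusted by Benjamini-Hochberg over all transcripts of a contrast, at a threshold of 0.05. An exact permutation test of 3 against 3 cannot give a p below 0.1. These contrasts between times share group means with the rule, so their counts and intervals are descriptions. TPM are not counts, so no count model was used. The rule and the fit were tested on simulated data. Figures were drawn with matplotlib 3.10.9.

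The members and the properties by which they are named (depth of the fall, level, spread of the controls, change between times, shared locus, nearness to a bound) were chosen with earlier results of these data known. Functional and cell type lists need product names and were not used here. The alternatives were other scalings, pseudocounts and filters, TPM summed per locus, group medians, the replicate number as a block, the 6 libraries alone, quality weights and leaving out libraries.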

Additional observations from a re-analysis of the deposited data

How the results depend on the processing

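The membership depended on the processing. The rule gave 45 transcripts with TPM left unscaled (5 of the 10 members among them), 22 with quantile normalization (all 10), 18 with a pseudocount of 0.1 (all 10) and 6 with a pseudocount of 5 (3). Those 3 were BV898_03660.t01, BV898_07283.t01 and BV898_09373.t01, and all 3 were lost with unscaled TPM. No member was thus kept under both of these settings. Unscaled TPM shifted all transcripts by a median of -0.52 at 12 h and -0.29 at 24 h, so more of them passed -1.5. Under unscaled TPM and quantile normalization all 10 members stayed at -1.5 or lower at both late times; the 5 lost with unscaled TPM passed under the earlier bound. The other filters and TPM summed per locus gave 10 (9 shared loci for the sum), and group medians gave 15, with 4 members. Leaving out 1 library gave 5 to 16 transcripts, 5 without 3 h replicate 2 and 16 each without 3 h replicate 1, 9 h replicate 2 or control replicate 2; without 12 h replicate 3 it gave 10, with 8 of the members. Each member was kept in 17 to 22 of the 24 such settings. Leaving out a control cost more of them. Without control replicate 1, 2 or 3, only 4, 5 and 4 of the 10 members were kept.

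The rule bounded the means behind each contrast between times, so these counts describe the members and test nothing free of their choice. The count of members called was 0 for 24 h against 12 h under each alternative run. For 1 h against 0 h it was 1, BV898_20057.t01, with the 6 libraries alone. For 9 h against 1 h it was 1, BV898_09373.t01, with the 6 libraries alone and 1 with quality weights. The cause was not tested. Other alternatives gave 0 there. With the replicate number as a block the count was 0 in all 3 contrasts. Deviations of same-numbered libraries correlated between -0.02 and 0.23, and the numbers were not taken as pairs. Between 9 and 1 h each library correlated best with its own number, though only at 0.008, 0.055 and 0.080 (replicates 1 to 3). Between 24 and 12 h replicates 2 and 3 did so, and between 1 and 0 h none did. Whether a number marks libraries handled together was not tested. Depth is unknown and limits the scarce members most.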
